A study of Mus musculus with 4 samples.

Results

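DNA methylation was compared between day -2 and day +2 of adipogenic induction in 3T3-L1 cells that stably carry shRNA8, a short hairpin RNA against the long non-coding RNA slincRAD. The comparison rests on 2 of the 4 arrays of the study, chosen by their labels, with 1 array per group. The group at day -2 was harvested before induction. The group at day +2 came from the same stable line after confluence and induction with insulin (167 nM), dexamethasone (1 µM) and 3-isobutyl-1-methylxanthine (0.5 mM). The other 2 arrays hold wild type 3T3-L1 cells at the same days and serve here only for values side by side. 3T3-L1 is a mouse embryo fibroblast line that turns into fat cells under these agents. All values come from 1 shRNA and 1 stable line with an untransfected parent line beside it, so an effect of slincRAD and one of this shRNA or of transfection cannot be told apart. Whether the shRNA8 cells held less slincRAD cannot be read from DNA.

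In MeDIP-chip, DNA fragments bound by an antibody against 5-methylcytosine (the IP, labelled with Cy5) are hybridized together with the unselected DNA of the same cells (the input, labelled with Cy3). The log2 ratio of IP to input is read as methylation, so it falls when less methylated DNA is recovered and also when the input becomes brighter. In mammals most CG pairs are methylated, while promoters with dense CG pairs are mostly free of it. Confluent 3T3-L1 cells that receive the hormone mixture re-enter the cell cycle before they become adipocytes, and slincRAD is a long non-coding RNA described in the early phase of this programme.

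Promoters of 3 gene families that arose by tandem duplication are shown first, because several blocks of change lay over such families. As background knowledge of the mouse genome, these blocks cover arrays of major urinary protein genes (Mup, carriers of pheromones in urine), Speer genes (expressed in testis) and Vmn2r genes (pheromone receptors of the vomeronasal organ). Each line gives the 100 bases upstream of the annotated start from RefSeq on GRCm38.p6, another build than the mm9 of the arrays. Capitals mark bases that lie in a word of 45 bases, the length of the shortest array probe, also found upstream of another gene of the same family. Hoxa10, a developmental transcription factor gene, is shown for contrast. The stretches are chr4:61439705-61439804 for Mup15, chr4:61782225-61782324 for Mup19, chr5:15714272-15714371 for Speer4c, chr5:14938476-14938575 for Speer4e, chr7:7337494-7337593 for Vmn2r30, chr7:8931403-8931502 for Vmn2r40 and chr6:52240855-52240954 for Hoxa10, all on the minus strand.
Mup15: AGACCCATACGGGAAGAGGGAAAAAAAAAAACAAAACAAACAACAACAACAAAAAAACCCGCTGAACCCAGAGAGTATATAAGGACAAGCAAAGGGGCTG
Mup19: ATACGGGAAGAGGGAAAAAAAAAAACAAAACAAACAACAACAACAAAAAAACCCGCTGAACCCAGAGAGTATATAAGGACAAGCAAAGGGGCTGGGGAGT
Speer4c: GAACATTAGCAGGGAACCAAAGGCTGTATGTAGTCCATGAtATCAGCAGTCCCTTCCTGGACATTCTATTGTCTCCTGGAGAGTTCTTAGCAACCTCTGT
Speer4e: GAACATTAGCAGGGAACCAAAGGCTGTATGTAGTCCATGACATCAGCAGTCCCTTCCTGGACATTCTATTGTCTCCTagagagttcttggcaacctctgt
Vmn2r30: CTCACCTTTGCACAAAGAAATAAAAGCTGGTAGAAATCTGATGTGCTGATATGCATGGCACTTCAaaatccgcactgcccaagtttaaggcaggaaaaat
Vmn2r40: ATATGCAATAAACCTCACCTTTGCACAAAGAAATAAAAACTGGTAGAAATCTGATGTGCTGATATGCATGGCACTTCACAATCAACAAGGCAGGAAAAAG
Hoxa10: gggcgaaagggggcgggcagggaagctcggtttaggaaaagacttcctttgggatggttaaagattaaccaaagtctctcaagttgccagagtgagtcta
All 100 bases shown are capitals in Mup15, Mup19 and Vmn2r40, against 99 in Speer4c, 77 in Speer4e, 65 in Vmn2r30 and 0 in Hoxa10. The Mup, Speer and Vmn2r promoters shown were picked as those sharing words with the most members of their family. Their high counts follow in part from that choice and do not stand for the whole family. Over 250 bases upstream, promoters that share more than 50% of their 45-base words with another promoter were 7 of 14 for Mup, 5 of 9 for Speer, 18 of 48 for Vmn2r on chromosome 7 and 66 of 115 for Vmn1r on chromosome 7. The same held for 1077 of 27025 promoters in all (3.99%), for 4 of 242 olfactory receptor promoters on chromosome 2 and for 0 of the 9 Hoxa promoters in the table. Whether this sharing is related to the day changes below was not tested. The median number of CG pairs per 250 bases was 2 for Mup, 0 for Speer and 1 for Vmn2r, but also 1 for Vmn1r and for the olfactory receptors of chromosomes 2 and 9, against 6 over all promoters and 13 for Hoxa. Promoters of the KRAB zinc finger clusters and of the chromosome X windows described below were not compared. These counts describe the reference, and none of the measured regions below was assigned to a gene.

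Each array carried 174638 genomic probes. The 113579 probes (65.0%) whose input was above background in both shRNA8 arrays were kept. Probes at most 1000 bp apart were joined to 19849 regions of 3 or more, and the median region spanned 1454 bp and held 5 probes. In the whole series, the input was above background for 67.6% to 76.3% of the probes of an array and the IP for 87.7% to 88.2%. The input was dim: its median signal after background subtraction in shRNA8 cells was 8.64 intensity units at day -2 and 8.78 at day +2, over a median background of 26 and 24 units. The IP gave 56.1 and 56.5 units over a background of 9 and 10. With 1 array per group no test could be made, so regions are called by size alone: lower or higher means that the probes differed on average by 0.6 or more in log2 units, or 1.52-fold, with at least 75% of the probes on that side. Spread between cultures and between arrays was not measured, and each SD below is over probes or over regions of the same pair of arrays.

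Induction of the shRNA8 cells was accompanied by more lower than higher regions, and the change sat in the input channel. The ratio was lower at day +2 in 430 of 19849 regions (2.17%) and higher in 243 (1.22%). The median change was -0.75 over the lower regions, 0.73 over the higher ones and 0.01 over all regions, of which 47.6% lay below 0. The 2 regions just inside the threshold on the lower side had -0.6005 and -0.6004, and the 2 just outside had -0.5999 and -0.5986, so the calls cut a continuous range.

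Taken apart, the channels differed widely in how much they moved. The SD of the day change over regions was 0.28 for the input and 0.07 for the IP on the log2 scale, beside 0.28 for the ratio, and the input held 94.4% of the summed variance of both channels. From the 1st to the 99th percentile the IP change ran from -0.16 to 0.17, and the input change from -0.70 to 0.78. By the same size rule the input was brighter at day +2 in 357 regions (1.8%) and dimmer in 243 (1.22%). The IP passed the rule in 1 region (0.00504%), chr1:16677446-16678741, named because it is the single one. Its IP change was -1.30 ± 2.80 (SD, 5 probes) and its input change -2.62 ± 5.38, so its probes disagreed by more than its mean, and it was no longer called when spots with quality flags were left out.

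Of the 430 lower regions, the input was above 0 in 430 and past the size rule in 335 (77.9%), while the IP was below 0 in 257 (59.8%), beside 48.5% of all regions. Their input signal was 258 at day -2 and 481 at day +2, and their IP signal was 203 and 206. For the sets of lower and higher regions the signal is the median over regions of the geometric mean over probes, in processed units. For windows and clusters below it is the geometric mean over probes and regions, and for single regions that over probes. Of the 243 higher regions, the input was dimmer past the rule in 182 (74.9%) and the IP was above 0 in 176 (72.4%). Their input signal was 474 at day -2 and 297 at day +2, and their IP signal 346 and 357. Lower and higher regions thus showed nearly the same IP signal at both days and opposite changes of the input. The input also enters the ratio, so the sign of its change in called regions follows in part from the call.

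**Figure D1:**
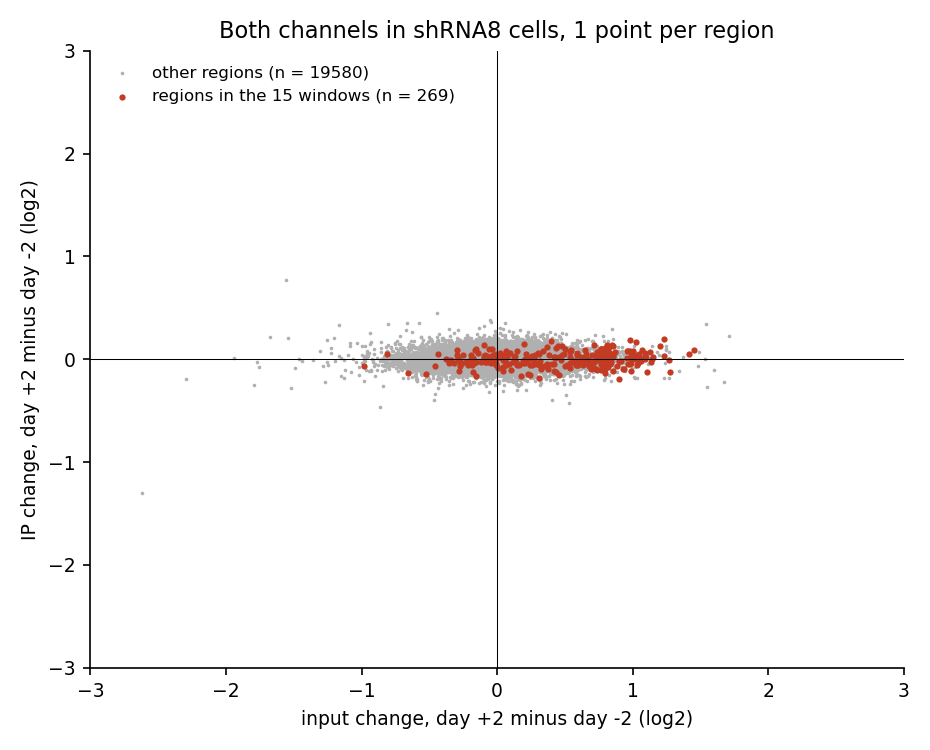
Day change of the input (horizontal axis, log2) against that of the IP (vertical axis, log2), 1 point per region in shRNA8 cells. Regions in the 15 windows picked below for their share of lower regions are marked. Lower and higher calls are not marked. The points spread along the input axis, with an SD of 0.28, and little along the IP axis, with an SD of 0.07.

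The lower regions were concentrated in a few stretches of the genome. Of 1000 windows of 2 Mb with at least 5 regions, 15 (1.5%) had at least 25% lower regions and 0 (0%) had at least 25% higher regions. These 15 windows held 269 regions, or 1.36% of all, and 120 of the 430 lower regions (27.9%), with 1 higher region. Their mean change was -0.46 for the ratio, 0.00 for the IP and 0.44 for the input. Outside them 310 of 19580 regions (1.58%) were lower and 242 (1.24%) higher, so the excess of lower over higher regions was smaller there. The windows were picked by their share of lower regions, and their means describe that choice.

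On proximal chromosome 7 the window from 8 to 10 Mb in mm9 coordinates had the highest share, with 12 of 14 regions lower and all 14 below 0. Its mean change was -0.90 ± 0.26 (SD over regions), with the IP signal at 93.9 and 94.6 on day -2 and day +2 and the input signal at 304 and 587. On chromosome 2 the window from 176 to 178 Mb had 16 of 21 regions lower, a mean of -0.74 ± 0.43, IP signals of 163 and 171 and input signals of 492 and 878. In both, the input was much brighter at day +2 and the IP was almost level. The IP was itself weak there: in the lower regions of the 15 windows, 80.2% of the probes at day -2 and 79.5% at day +2 had an IP signal above background, against 96.7% and 96.5% of all probes in regions, and the median net IP signal was 24.8 and 24.4 units, against 132 and 133. Of the 15 windows, 9 lay in gene clusters described below, 4 were on chromosome X and 2 elsewhere on chromosome 7.

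**Figure D2:**
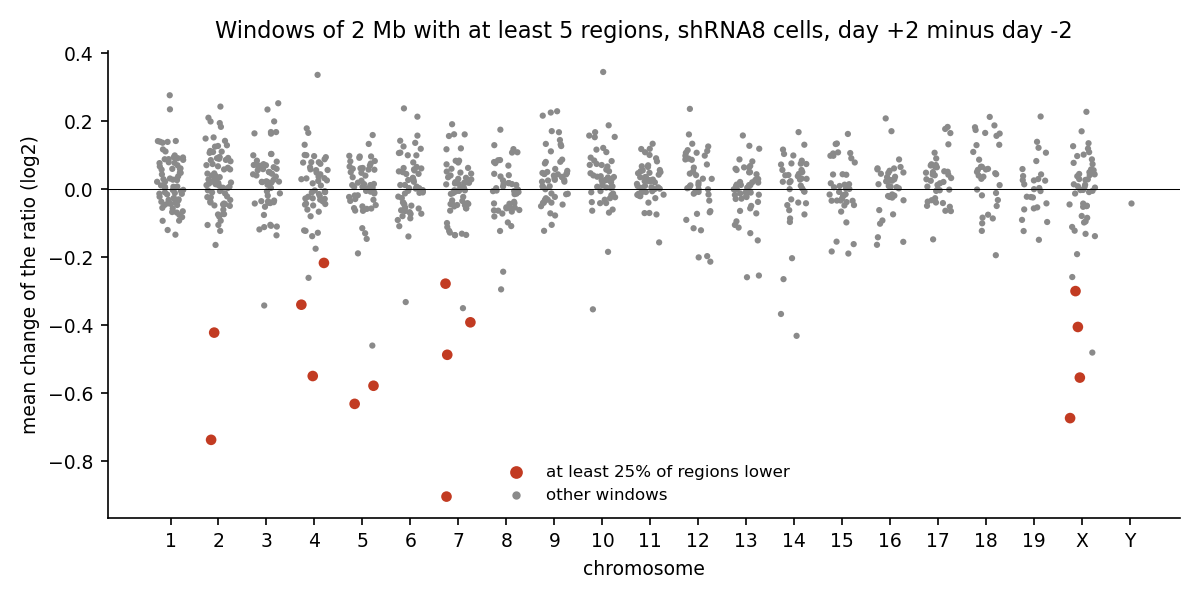
Mean day change of the ratio (vertical axis, log2) in each of the 1000 windows of 2 Mb, grouped by chromosome (horizontal axis), with the 15 windows of at least 25% lower regions marked. Within a chromosome the points are spread sideways at random. The marked windows have means from -0.90 to -0.22 and sit on chromosomes 2, 4, 5, 7 and X.

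The windows over duplicated gene families were followed one by one. Their limits come from general knowledge of where these families lie in mm9, for the first 6 with earlier results of these data in view, and were not checked against an mm9 annotation. KRAB zinc finger proteins are repressors, many of which bind transposable elements and recruit silencing complexes, and their genes form clusters on distal chromosomes 2 and 4. On chromosome 2, 29 of 49 regions were lower (59.2%) and 1 was higher, with a mean of -0.56 ± 0.55. The input signal was 536 at day -2 and 833 at day +2, and the IP signal 223 and 231. All lower regions lay between chr2:174892772 and chr2:177814338. In that span 29 of 31 regions were lower, all 31 were below 0 and the mean was -0.94. The 18 regions of the same windows outside the span had a mean of 0.09.

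The cluster on distal chromosome 4 had the same shape at a smaller size. Of its 49 regions 15 were lower and 0 higher, with a mean of -0.26 ± 0.42 and input signals of 597 and 755. Between chr4:145205822 and chr4:147185118 all 20 regions were below 0 and 15 were lower, with a mean of -0.68, and the 29 regions beside this span had a mean of 0.02. Both spans end at called regions, which places their edges by the values themselves.

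The Mup window on chromosome 4 moved as a whole rather than by a few strong regions. All 22 regions were below 0 and 9 were lower, with a mean of -0.55 ± 0.22. The input signal was 420 at day -2 and 630 at day +2, and the IP signal was 215 at both days. In the 2 Speer windows on chromosome 5, 16 of 25 regions were lower (64%), with a mean of -0.60 ± 0.42. There the input signal was 680 and 1065 and the IP signal 251 and 252.

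For the vomeronasal receptors the 2 families differed in extent, but only the Vmn2r windows were placed with earlier results of these data in view. In the Vmn2r windows on chromosome 7, 21 of 49 regions were lower, with a mean of -0.46 ± 0.51 and input signals of 377 and 538. In the Vmn1r windows on the same chromosome, 11 of 76 were lower, with a mean of -0.23 ± 0.44. With only probes well above background in the input, the Vmn1r windows kept 17 regions, of which 0 were lower, with a mean of -0.03, and without background subtraction the mean was -0.07 with 1 lower region. Under the same settings in turn, the Vmn2r mean was -0.30 with 5 of 25 regions lower, and -0.16 with 0 of 49. The takusan genes, a family described in synapses, lie on proximal chromosome 14, where 15 of 16 regions were below 0 but 2 passed the rule, with a mean of -0.45 ± 0.29 and input signals of 540 and 784.

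The means of most other gene clusters were near 0. Olfactory receptor clusters, which hold many related genes too, had 6 lower (6.90%) and 3 higher of 87 regions on chromosome 2 (mean 0.02) and 2 lower (3.92%) and 2 higher of 51 on chromosome 9 (mean -0.04), beside 2.17% lower and 1.22% higher over all regions. Both directions thus lay above the shares of all regions, but on few calls. The mean probe length was 54.2 bases in the chromosome 2 windows and 53.2 in that of chromosome 9. Of all regions with a mean probe length of 53 to 60 bases, 11.3% were lower and 1.89% higher. The window of replication-dependent histone genes had 2 lower and 2 higher of 68 regions, that of epidermal differentiation genes 1 lower of 50, and that of type I keratin genes 1 lower of 84. The 4 windows of the Hox genes, which pattern the body axis, had mean probe lengths of 46.8 to 47.4 bases. Of all regions, 0.596% were lower at 45 to under 47 bases and 1.40% at 47 to under 50. In the Hox windows 0 of 147 regions were lower and 2 were higher. Those 2 lay in the HoxD window, where the mean was 0.15 ± 0.24 and the input signal was 713 at day -2 and 680 at day +2. The HoxD mean was 0.00 with the input well above background, 0.07 without the filter and 0.02 without background subtraction. The prolactin family window, of hormone genes expressed in placenta, was the exception, with a mean of -0.26 ± 0.22, as low as that of the chromosome 4 zinc finger windows. It held 9 regions, all below 0, of which 1 was lower, and its mean was -0.03 over 24 regions without the filter.

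**Figure D3:**
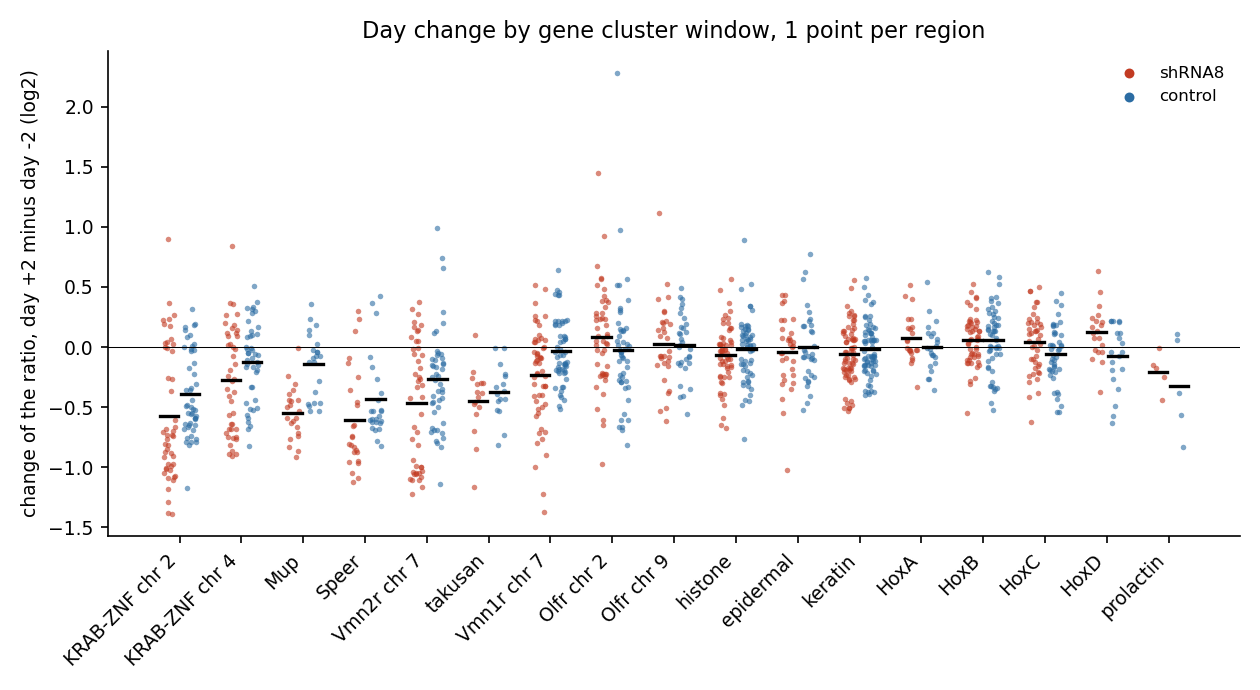
Day change of the ratio (vertical axis, log2) in the 17 gene cluster windows, for regions with a control value. Each region has 1 point for shRNA8 and 1 for control cells, and lines give the mean of each window and line. Over these regions the KRAB zinc finger, Mup, Speer, Vmn2r and takusan windows have shRNA8 means from -0.60 to -0.27 and control means from -0.44 to -0.12. The Hox windows have shRNA8 means from 0.04 to 0.12 and control means from -0.08 to 0.06.

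Single regions show how the channels behaved inside these stretches. Regions of at least 5 probes, all on 1 side, past the size rule and with an SD over probes under the size of the mean numbered 136 lower (1.01%) and 24 higher (0.178%) of 13470. Among the 10 most negative of them, 6 lay in the 15 windows. Their input was 2.15- to 2.91-fold brighter at day +2, and their IP change ran from -0.19 to 0.09 on the log2 scale. The region with the largest change, chr7:10638028-10639653, had input signals of 164 at day -2 and 424 at day +2 and IP signals of 53.05 and 50.01, which gave a change of -1.42 ± 0.73 (SD, 7 probes).

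The next regions lay in the chromosome 2 zinc finger windows. The region chr2:175294521-175295918 had input signals of 332 and 946 and IP signals of 46.8 and 49.6, a change of -1.39 ± 0.57 (6 probes). The region chr2:175638228-175639532 had input signals of 337 and 864 and IP signals of 82.7 and 84.4, a change of -1.29 ± 0.43 (6 probes). Both had a ratio far below the array's median before induction, at -3.13 and -2.33. A low starting ratio was not shared by all: chr7:3424130-3425836, outside the windows, started at 0.73 and ended at -0.49, with input signals of 220 and 565.

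In the other families the most negative region with all probes lower was taken from each window. In the Mup window chr4:61180092-61181719 had input signals of 345 and 648 and IP signals of 138 and 134, a change of -0.92 ± 0.75 (7 probes). In the Speer windows chr5:26330772-26332431 had input signals of 526 and 1112 and IP signals of 126 and 119, a change of -1.13 ± 0.40 (8 probes). In the Vmn2r windows chr7:7289705-7291328 had input signals of 197 and 492 and IP signals of 58.2 and 60.9, a change of -1.22 ± 0.74 (8 probes), and it was lower in control cells too, with -0.63. The probes of this region were among the longest of the regions named. In the other of those windows chr7:8245242-8246703 had input signals of 259 and 611 and IP signals of 134 and 138, a change of -1.17 ± 0.64 (6 probes). The spread over probes was widest at chr7:21315467-21316946 in the Vmn1r windows, with -1.37 ± 1.46 (5 probes). In each of these families the brighter array in the input was that of day +2, and the IP differed little.

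The 10 most positive regions by the same rule were smaller in size and scattered, with 0 of them in the 15 windows. Their input at day +2 was 0.59 to 0.72 of that at day -2, and the IP change ran from -0.12 to 0.21. The largest was chr12:32122027-32123437, with input signals of 258 and 158, IP signals of 290 and 326 and a change of 0.92 ± 0.57 (5 probes). The most even was chr11:61080135-61081315, with input signals of 186 and 116, IP signals of 178 and 183 and a change of 0.75 ± 0.17 (5 probes).

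**Figure D4:**
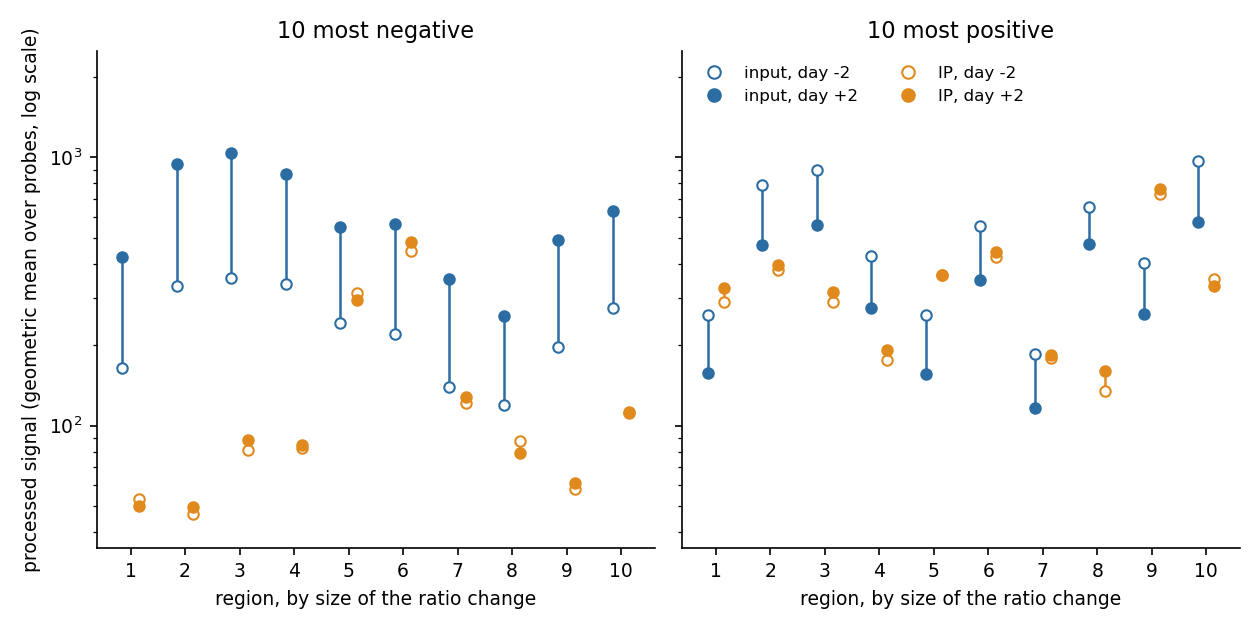
Processed IP and input signals (vertical axis, log scale) at day -2 and day +2 for the 10 most negative regions (left) and the 10 most positive regions (right), in order of size along the horizontal axis. On the left the input is 2.15- to 2.91-fold brighter at day +2, and on the right it is 0.59 to 0.72 of its value at day -2.

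The lower regions also shared features of their probes. Array probes are made longer where the DNA is rich in A and T, so that they melt at a similar temperature. The share of lower regions was 0.596% (57 of 9564) where the mean probe length was 45 to under 47 bases, 1.40% at 47 to under 50, 5.11% at 50 to under 53 and 11.3% (156 of 1377) at 53 to 60. Inside the 15 windows the same classes held 0 of 46, 7 of 56, 49 of 80 and 64 of 87 lower regions. Outside them they held 57 of 9518, 83 of 6368, 78 of 2404 and 92 of 1290. The order was the same in both. The level at a given length was higher inside the windows except for the shortest probes. The windows were chosen by their share of lower regions, so that higher level follows at least in part from the choice. How much of it does was not tested.

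Brightness of the input moved with the calls as well. With regions split into 4 equal classes by the input signal at day -2, the share of lower regions was 5.78% in the dimmest, 1.61% and 0.947% in the middle ones and 0.322% in the brightest. Inside the 15 windows it was 51.5%, 48.6%, 42.0% and 21.2%. Part of the trend follows from the definition: the input at day -2 enters the ratio change with a positive sign, so a dim value there lowers the change. The lower regions inside the windows had a median ratio of -2.09 at day -2, against -0.17 for the lower regions outside and -0.22 for all regions. On the scale of single spots their median input signal before subtraction was 55 units at day -2 and 69 at day +2, over a background of 26 and 24, while the IP spot gave 35 and 34. For all kept probes in regions the input spot was 58 and 59. The part of probe length, brightness and spot background in the lower calls was not tested.

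**Figure D5:**
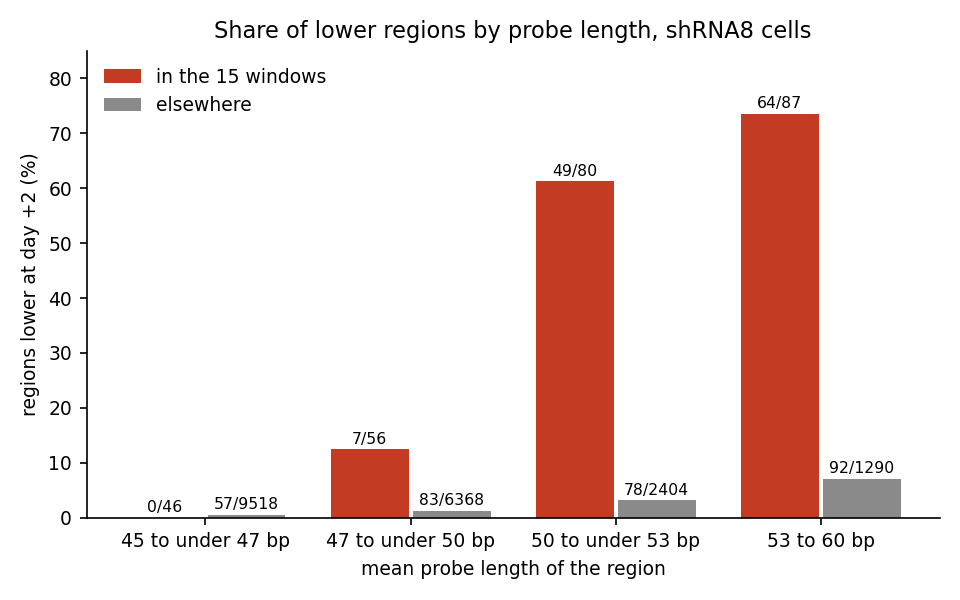
Share of regions lower at day +2 (vertical axis, percent) by mean probe length of the region (horizontal axis), inside and outside the 15 windows. Outside the windows the share runs from 0.599% to 7.13%, and inside from 0% to 73.6%. The windows were picked by their share of lower regions.

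The size of these changes depended on background subtraction, and in some clusters on the brightness filter. With spot signals that were not background subtracted, the means of the first 6 clusters (both KRAB zinc finger clusters, Mup, Speer, Vmn2r and takusan) were all below 0, from -0.30 to -0.13, and 0 of their 210 regions were called, against 92 as reported. With only probes well above background in the input of both arrays, 58 of 157 regions of these clusters were lower, which was most of the 99 lower regions left in all. The means of 3 clusters then moved little: -0.45 in the chromosome 2 zinc finger windows (26 of 49 regions lower), -0.29 in those of chromosome 4 (10 of 32) and -0.54 in the Speer windows (15 of 23). The Mup mean was -0.28 with 1 of 13 regions lower, that of Vmn2r -0.30 with 5 of 25, and that of takusan -0.31 with 1 of 15.

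Wild type cells were set beside the shRNA8 cells over the same regions, from 2 arrays that the shRNA8 comparison does not use. Of the 17747 regions with a control value, 238 (1.34%) were lower at day +2 in control cells and 184 (1.04%) were higher, and 50.5% lay below 0. Of 351 regions lower in shRNA8 cells with a control value, 61 were lower in control cells too, which is 17.4% of the 351 and 25.6% of the 238. Inside the 15 windows this was 35 of 118, with 96.6% of the 118 below 0 in control cells, and outside 26 of 233, with 62.7% below 0. Of all 255 regions inside the windows with a control value, 45 were lower in control cells and 76.9% were below 0. Outside, 193 of 17492 were lower and 50.1% were below 0. Of 177 regions higher in shRNA8 cells, 5 were higher in control cells. In 7 of the 17747 regions (0.0394%) the calls went in opposite directions.

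The control mean was below 0 in all 15 windows and nearer to 0 than the shRNA8 mean in each, but the windows were chosen on the shRNA8 values, and the difference between the lines was not tested. On chromosome 7 from 8 to 10 Mb the means were -0.90 in shRNA8 cells and -0.50 in control cells. In the chromosome 2 zinc finger windows they were -0.57 and -0.39 over the same 48 regions, of which 15 were lower in control cells. In the Speer windows they were -0.60 and -0.44, with 10 of 25 lower. The takusan windows had -0.45 and -0.37, so these families moved the same way in both lines.

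The Mup window set the lines furthest apart among the first 6 clusters by its mean, with -0.55 in shRNA8 cells and -0.14 ± 0.27 in control cells, where 0 of 22 regions were lower and 16 were below 0. That order rests on a shRNA8 mean that was -0.28 with the input well above background and -0.21 without background subtraction. In the Vmn1r windows the means were -0.23 and -0.03, with 0 lower and 1 higher of 55 regions in control cells. With the filter applied to the control arrays themselves, control cells had 265 lower and 198 higher of 18712 regions, 0 past the rule in the IP and 4 windows with at least 25% lower regions, against 15 in shRNA8 cells.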

How the data were processed

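MeDIP-chip was measured on 4 two-colour arrays, 1 per line and day. The deposited intensity columns hold spot, background, background-subtracted and dye-normalized processed signals from Agilent Feature Extraction 11.0.1.1 on mm9, per the file headers, and a log10 ratio of both processed channels was deposited beside them. The submitters' processing notes name limma without a role. Channel assignment follows the labels and was not checked. The input label of the shRNA8 array at day +2 gives that day yet calls the cells uninduced, and the array was kept as day +2. The labels call each array 1 replicate, and any pooling of cultures is not given in the sources used here.

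For each probe log2 of processed Cy5 over Cy3 was taken, probes above input background in both shRNA8 arrays were kept, and each array was centred on its median, which removes any overall change in methylation between days. Probes up to 1000 bp apart formed regions of at least 3 probes. Single channels were centred likewise. No p-value was computed. The regions named were the 10 most negative and 10 most positive that passed the size rule with at least 5 probes all on 1 side and an SD over probes under the size of the mean, and in each cluster window the most negative that passed the size rule with at least 5 probes all lower, whatever its SD. Members and lists were chosen with earlier results of these data known. Gene lists were not analysed here, as the files give no genes and the gene table is of GRCm38. The script was tested on simulated data.

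The alternatives were other filters, normalizations (including loess in limma 3.58.1, R 4.3.3), probe gaps, sizes and signals. Scripts ran in Python 3.11.15 with matplotlib 3.10.9, pandas 2.3.3 and numpy 2.4.6.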

Additional observations from a re-analysis of the deposited data

Results flagged for a closer look

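In 7 of 17747 regions (0.0394%) the ratio passed the size rule in opposite directions in shRNA8 and control cells. Each was picked for that, and the difference was not tested, as each line has 1 array per day. The difference, shRNA8 change minus control change on the log2 scale, was -3.25 at chr2:89861937-89863164, from -0.97 ± 0.55 (SD over 4 probes) in shRNA8 cells and 2.28 in control cells (3 probes). It was 2.06 at chr11:61080135-61081315, one of the most positive regions of the shRNA8 comparison, from 0.75 (5 probes) and -1.31 (3 probes). At chr1:136258086-136259433 it was 1.62, from 0.81 and -0.82. The others were 1.34 at chr13:21766324-21767635, -1.31 at chr15:101362761-101364357, 1.32 at chr17:95233645-95235456 and 1.26 at chrX:34335364-34335829. The control means of the 7 regions rest on 3 to 5 probes, in most of them fewer than in shRNA8 cells, so the differences compare unlike sets of probes there. In all 7 the IP change of shRNA8 cells lay between -0.04 and 0.11, and the input change ran from -0.77 to 0.91.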

How the results depend on the processing

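The counts move with the size, filter and signal, and the direction of the family windows less so. In the order lower, higher and input regions, against 430, 243 and 600 as reported, the counts were 99, 20 and 104 with the input well above background, 6, 5 and 8 without background subtraction, 245, 90 and 301 with at least 5 probes, 61, 26 and 80 at a size of 1, 971, 833 and 1738 at a size of 0.4, and 286, 148 and 390 where every probe had to move the same way. Lower regions made up 63.9% of calls as reported, 83.2% with the input well above background, 54.5% without background subtraction and 53.8% at a size of 0.4. The 1 IP region became 0 with the input well above background, with the input above background in all 4 arrays, with flagged spots left out and with all probes the same way, and became 2 with both channels above background and at a size of 0.4. The Mup mean of -0.55 moved to -0.28 with the input well above background and to -0.21 without background subtraction, and the prolactin mean of -0.26 to -0.029 without the filter. For the first 6 clusters 54 of 54 means under the alternatives were below 0, while the Vmn1r mean of -0.23 was -0.03 and the HoxD mean of 0.15 was 0.00 with the input well above background. The first 6 clusters were placed with earlier results of these data in view, and all settings reuse the same arrays. The deposited log ratio gave the same means as reported. The 54 means are thus not separate evidence of direction. The prolactin window gave no value with the input well above background. No paired analysis was possible because each group holds 1 array, and no array could be left out. The SD of the ratio change over regions was 0.35 in the dimmest class of input signal and 0.22 in the brightest.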

Other observations

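Runs of neighbouring regions that all lay below 0 in shRNA8 cells were looked up along each chromosome, after the values were seen and with no test. The longest was 32 regions from chr2:174584973 to chr2:177814338, with a mean of -0.91, of which 29 were lower. The next, 31 regions from chr7:7289705 to chr7:10861736, had a mean of -0.87 and 25 lower regions, and so ran past the Vmn2r windows. Among the runs outside the windows described above were 18 regions from chr8:22061251 to chr8:22619899, with a mean of -0.38 and 5 lower regions, and 17 regions from chr5:94100399 to chr5:97222628, with a mean of -0.37 and 3 lower regions. In these 2 the mean IP change was near 0, at -0.04 and 0.00, and the input change was 0.33 and 0.35. A run of 17 regions from chr3:60275832 to chr3:64312288 had a mean of -0.31 and 2 lower regions, and one of 16 from chr7:51187841 to chr7:51481164 had -0.33 and 0 lower regions. Runs above 0 of similar length lay on chromosome 18, with 18 and 16 regions, a mean of 0.21 each and 0 and 1 higher regions. As background, the stretch of chromosome 8 lies where defensin genes, which encode antimicrobial peptides, are clustered, a placement that was not checked on mm9.

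Chromosome X had the highest share of lower regions among the autosomes and X, with 37 of 820 (4.51%), and chromosome 7 followed with 74 of 1758 (4.21%). The lowest were chromosome 11 with 0.598% and chromosome 18 with 0.615%. On X the window from 2 to 4 Mb had 6 of 8 regions lower, with a mean of -0.67 ± 0.33 in shRNA8 cells and -0.45 in control cells. The window from 30 to 32 Mb had 6 of 12, with -0.55 ± 0.35 and -0.42. In these windows the input signal was 456 and 517 at day -2 and 790 and 809 at day +2, and the IP signal was 105 and 115 at day -2 and 111 and 120 at day +2.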
